A study of Mus musculus with 2 samples.

Results

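Vascular cells of the embryonic mouse cortex were picked from single-cell RNA-seq data by their own transcripts and comprised 191 of 25114 barcodes, of which 114 were mural and 77 endothelial. A barcode entered when it held at least 500 detected genes, at most 10% mitochondrial UMIs (unique molecular identifiers, each counting 1 captured mRNA molecule) and at most 3 UMIs in all of Neurod2 and Neurod6, transcription factor genes of excitatory neurons. Mural barcodes had at least 4 UMIs in all of Rgs5, Pdgfrb, Kcnj8 and Abcc9, and endothelial barcodes at least 4 of Cldn5, Flt1 and Pecam1. A further 16 barcodes met both conditions and were left out of either group. The 9 genes of these rules chose the cells, so that their values are descriptions without a test, and every other comparison is one of groups formed from the same barcodes. The libraries came from 2 wild-type embryos at embryonic day 16.5, called embryo 4 and embryo 5 here after their labels (EoMltt3 E16.5 WT), which the design text describes as controls of the EomesMllt3 line and the study as C57BL/6J mice. No treatment, litter, sex or Cre status was given, and no other genotype was compared. The tissue label reads Brain hemispheres, while the protocol names the cortex, dissociated with papain and captured on the 10x Genomics 3' v3.1 platform.

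Endothelial cells line the vessels that grow into the cortex from its surface, and mural cells, pericytes on capillaries and smooth muscle cells on larger vessels, wrap them within a shared basement membrane. Endothelial PDGF-B recruits mural cells through the receptor PDGFRB, and the angiopoietin, Notch and TGF-beta pathways link both cell types. Neural Wnt7a and Wnt7b induce the blood-brain barrier in brain endothelium, which seals its junctions, takes up nutrients through dedicated transporters and carries little vesicular transport.

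In embryo 4, 50 mural and 36 endothelial barcodes made up 0.441% (95% exact binomial interval 0.327 to 0.581) and 0.317% (0.222 to 0.439) of 11344 barcodes that passed the limits on genes and mitochondrial share. In embryo 5, 64 mural and 41 endothelial barcodes made up 0.548% (0.422 to 0.699) and 0.351% (0.252 to 0.476) of 11686. The mean share was 0.494% ± 0.0756 for mural and 0.334% ± 0.0237 for endothelial barcodes (SD, n = 2 embryos), and the intervals cover counting error only. Median depth was 10484 and 9840.5 UMIs per mural barcode, 4347 and 8461 per endothelial barcode, and 10101 and 9096 per other barcode in embryos 4 and 5. The endothelial barcodes of embryo 4 thus stood apart by depth, and 10 of the 36 had under 1% mitochondrial UMIs, against 3 of 41 in embryo 5. In that group the 10 excitatory neuron markers summed to 910.8 CPM (UMIs of a gene scaled to a total of 1000000 UMIs for each embryo and group), against 98.69 in the endothelial barcodes of embryo 5. The libraries shared 46 barcode sequences, none of which was a vascular cell in both.

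Markers that the rules did not use bore out the labels for most cells. Of 23 further mural markers, the median mural barcode held 16 in embryo 4 and 14 in embryo 5, and 45 of 50 and 46 of 64 held at least 10. Of 25 further endothelial markers, the median endothelial barcode held 9 and 19, and 16 of 36 and 36 of 41 held at least 10. Just inside the mural threshold, at 4 or 5 UMIs of the chosen genes, lay 2 and 11 barcodes with a median of 1.5 and 4 further markers, and just outside, at 2 or 3 UMIs, 31 and 49 barcodes with 2 and 3. Just inside the endothelial threshold lay 3 and 3 barcodes with a median of 4 and 5 further markers, and just outside 30 and 36 barcodes with 1 and 1. Barcodes just outside a threshold included members of the other vascular group, among them mural barcodes with 2 or 3 UMIs of the endothelial genes. Barcodes at the threshold were therefore weakly marked, whereas the 47 and 49 mural barcodes with 10 or more UMIs of the chosen genes held a median of 16 and 15 further markers.

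**Figure D1:**
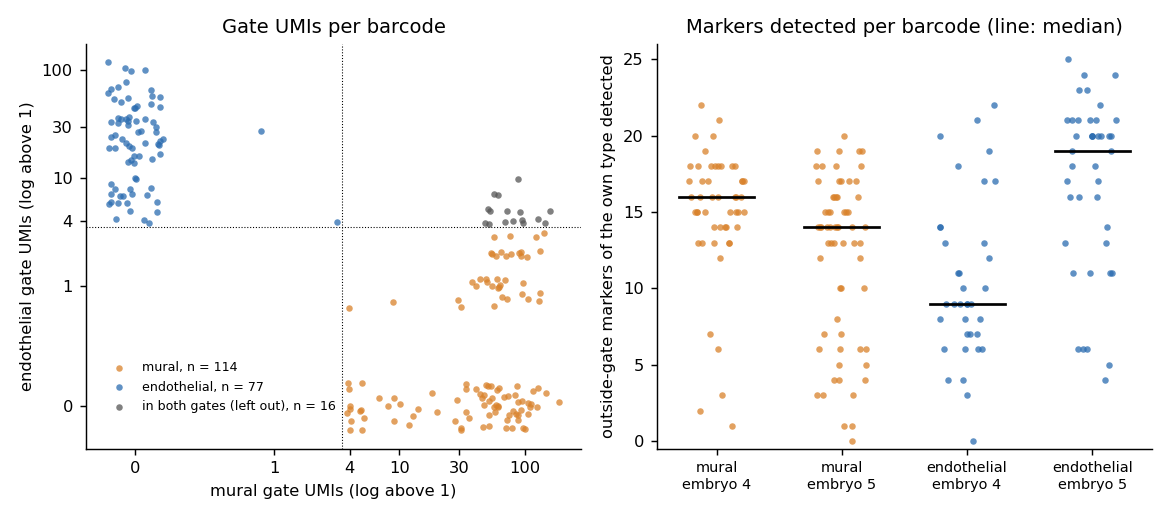
Left, UMIs of the 4 mural genes against UMIs of the 3 endothelial genes that chose the cells, 1 point per barcode, log axes above 1, with a small random offset and dotted lines at the thresholds. Right, number of further markers of its own type detected in each barcode, by group and embryo, with lines at the medians of 16, 14, 9 and 19.

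The genes that chose the cells are given first. Rgs5, an inhibitor of G-protein signalling and a pericyte marker (chr1:169655501-169695813, GRCm38.p6), had 4102 and 2527 CPM in the mural sums of embryos 4 and 5 and 0 UMIs in both endothelial sums. Kcnj8 and Abcc9, which encode the pore and the sulfonylurea receptor of the ATP-sensitive potassium channel of mural cells, lie side by side on chromosome 6 (142564837-142571614 and 142587862-142702766). Kcnj8 had 472.5 and 413 CPM in mural sums and 0 UMIs in endothelial sums, and Abcc9 had 1253 and 878 against 0 and 8.224. Cldn5, the main claudin of brain endothelial tight junctions (chr16:18776847-18778262), had 1003 and 2199 CPM in endothelial sums and 1.694 and 5.776 in mural sums. Flt1, a VEGF receptor (chr5:147561604-147726438), had 1877 and 1656 in endothelial sums and 38.95 and 40.43 in mural sums.

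Levels were then compared between sums of UMIs per embryo and group, with the remaining 22823 barcodes as the third group, with the quasi-likelihood test of edgeR over 9806 genes and p-values adjusted for the false discovery rate. Against endothelial sums, 439 genes (4.48%) were higher and 684 (6.98%) lower in mural sums at an adjusted p under 0.05. Against the other barcodes, 1868 genes (19.0%) were higher and 1583 (16.1%) lower in mural sums, and 1525 (15.6%) higher and 856 (8.73%) lower in endothelial sums. Counts of called list genes below are to be read against these shares of all tested genes. The median log2 fold change of all tested genes was 0.0178, -0.0176 and -0.0764 in these comparisons. With 2 embryos the counts moved with each sum: between mural and endothelial sums, they were 82 and 118 without the mural sum of embryo 4, 134 and 175 without that of embryo 5, 1151 and 1126 without the endothelial sum of embryo 5, and 229 and 318 without the other barcodes of embryo 4 (229 and 317 without those of embryo 5). With the embryo as a block, 969 genes were lower in mural and 441 lower in endothelial sums than in the other barcodes.

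Most further pericyte markers were called higher in mural than in endothelial sums. Of the 23 further mural markers, 21 passed the filter on low counts, and 17 were higher and none lower in mural than in endothelial sums (median log2 fold change 5.77, or 4.41 with genes at 0 set to their bound). The count was 8 without the mural sum of embryo 4 and 13 without that of embryo 5. Several of these markers, such as Higd1b and Cspg4, passed the filter only through the mural sums where they are high, so that counts of tested markers, here and in the lists that follow, were in part fixed by the filter. Vtn, which encodes the matrix protein vitronectin (chr11:78499120-78502325), had 1040 and 706.1 CPM in mural sums and 0 UMIs in endothelial sums, where 3 UMIs over both embryos would be 5.16 CPM. It was at least 167-fold higher in mural sums (edgeR adjusted p = 0.00959). Higd1b, a mitochondrial membrane protein gene, had 508.1 and 496.8 against 0 and 0 and was at least 97.2-fold higher (edgeR adjusted p = 0.00132). Cspg4, which encodes the proteoglycan NG2, had 296.4 and 199.3 against 0 and 0, at least 47.3-fold higher (edgeR adjusted p = 0.00298). Left out in turn, the mural sums of embryo 4 and of embryo 5 ended the call of Vtn (edgeR adjusted p of 0.0711 to 0.0935), but not those of Higd1b and Cspg4.

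Ndufa4l2, which encodes a respiratory chain-associated protein of pericytes, had 787.5 and 534.3 CPM in mural sums and 4.623 and 0 in endothelial sums, the latter from 1 UMI. The ratio of pooled levels was 378 with a counting interval from 67.7 (edgeR adjusted p = 0.00159). Notch3, the Notch receptor of mural cells, had 309.9 and 242.6 CPM in mural and 4.623 and 5.483 in endothelial sums, with 3 UMIs behind the latter and a ratio of 53.0 (18 to 258; edgeR adjusted p = 0.00132). For both genes the lower mural value was far above the higher endothelial one. Gjc1, which encodes connexin 45, had 1291 and 740.8 against 69.35 and 68.53, a log2 fold change of 3.89 ± 0.437 (SE; edgeR adjusted p = 0.00365). Pde5a, a cGMP phosphodiesterase gene, had 406.5 and 319.1 against 92.46 and 65.79 (log2 fold change 2.24 ± 0.280, edgeR adjusted p = 0.00494). Anpep, Gja4, Ebf1 and Tbx18 were the 4 tested mural markers without a call between the groups. Gja4, a connexin gene used for both pericytes and arterial endothelium, had 157.5 and 93.86 in mural and 64.72 and 386.5 in endothelial sums, and the groups overlapped (edgeR adjusted p = 0.462).

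Outside the fixed lists, genes of largest mural excess included Pcdh18, a protocadherin gene (340.4 and 274.4 CPM against 0 and 0, at least 59.0-fold, edgeR adjusted p = 0.00159), and Cd248, which encodes endosialin (274.4 and 169 against 0 and 0, at least 42.1-fold, edgeR adjusted p = 0.0197). Mmp9, a matrix metalloproteinase gene, had 196.5 and 134.3 against 0 and 0 and was at least 31.6-fold higher (edgeR adjusted p = 0.0175). Mmp9 lost its call without either mural sum (edgeR adjusted p of 0.0882 to 0.127), and Cd248 without any of the 4 vascular sums (0.0503 to 0.149). Pcdh18, Cd248 and Mmp9 passed the filter through the mural sums where they are high. They were picked among genes with at least 50 CPM there, so that their side was in part fixed. Grik1, a kainate receptor subunit gene, stood among the 12 genes most reduced in endothelial sums against the other barcodes, with 4.623 and 0 CPM against 55.47 and 61.62. In mural sums Grik1 reached 135.5 and 342.2, above the other barcodes in both embryos (log2 fold change 1.996 ± 0.421, edgeR adjusted p = 0.0115). Without the other barcodes of either embryo that call was lost (0.114 to 0.142), and the call of Grik1 in endothelial sums was lost without either endothelial sum (0.0905 to 0.241, edgeR adjusted).

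Several contractile genes were called higher in mural than in endothelial sums, and most Acta2 UMIs of embryo 5 came from 3 barcodes. Of 14 smooth muscle genes, 9 passed the filter, and 5 were higher and 1 lower in mural than in endothelial sums, against 7 and 0 with the embryo as a block and 3 and 0 without either mural sum. Cald1 (caldesmon) had 2922 and 2414 CPM in mural and 152.6 and 170 in endothelial sums (log2 fold change 4.05 ± 0.428, edgeR adjusted p = 0.0031). Myl9, a myosin regulatory light chain gene, had 492.9 and 405.8 against 13.87 and 5.483 (log2 fold change 5.68 ± 0.429, edgeR adjusted p = 0.00132), and Mylk, the kinase gene for that chain, 242.2 and 209.4 against 4.623 and 24.67 (3.72 ± 0.439, edgeR adjusted p = 0.00407). Smtn (smoothelin) was the 1 gene of the list that was lower in mural sums, at 33.87 and 30.32 against 73.97 and 68.53 (log2 fold change -1.15 ± 0.268, edgeR adjusted p = 0.0387). The call of Smtn was lost with the embryo as a block (edgeR adjusted p = 0.107) and without any 1 of the 6 sums (0.0848 to 0.188). Acta2, smooth muscle actin (chr19:34240336-34255585), had 35.57 CPM in the mural sum of embryo 4 and 436.1 in that of embryo 5. In embryo 5, 3 barcodes with 129, 82 and 56 UMIs held 88.4% of its 302 Acta2 UMIs, and the level without them was 54.27. The same 3 barcodes held 142 of 150 Tagln UMIs. Acta2 was detected in 6 of 50 (12%) and 15 of 64 (23.4%) mural barcodes and in 0.0751% and 0.0696% of the 6660 and 7181 barcodes with more than 3 Neurod UMIs, whose median depth was 11436 and 9940 UMIs. Its level did not pass the test between mural and endothelial sums (edgeR adjusted p = 0.106).

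Among transcription factor genes, 15 of 17 mural ones passed the filter, and 8 were higher and none lower in mural than in endothelial sums (median log2 fold change 4.22), against 4 without the mural sum of embryo 4 and 5 without that of embryo 5. Tbx2, a T-box factor gene, had 157.5 and 171.8 CPM against 0 and 0 (at least 32.0-fold, edgeR adjusted p = 0.00165), and Foxs1, a forkhead factor gene of pericytes, 118.6 and 102.5 against 0 and 0 (at least 21.3-fold, edgeR adjusted p = 0.0031). Zic1, a zinc finger factor gene, had 421.7 and 267.1 against 27.74 and 10.97 (log2 fold change 4.29 ± 0.454, edgeR adjusted p = 0.0031). Other factor genes had no call between the vascular groups. Foxf2, a forkhead gene of brain pericytes, had 76.21 and 49.1 in mural and 64.72 and 52.09 in endothelial sums (edgeR adjusted p = 0.873) and at most 0.2778 in the other barcodes. Epas1, which encodes HIF-2 alpha, had 242.2 and 229.6 in mural, 263.5 and 408.5 in endothelial and at most 0.7552 in the other barcodes, where it was lower than in either vascular group (edgeR adjusted p = 6.01e-05 and 6.09e-05). Ebf1 had 2441 and 2417 in mural and 832.2 and 970.4 in endothelial sums, a log2 fold change of 1.43 ± 0.386 that did not pass the test (edgeR adjusted p = 0.0619).

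Endothelial identity genes were higher in the endothelial cells. Of the 25 further endothelial markers, 24 passed the filter, and 21 were lower and none higher in mural than in endothelial sums (median log2 fold change -5.58, or -5.21 with genes at 0 at their bound). The count of 21 was 5 without either mural sum. Cdh5, which encodes VE-cadherin (chr8:104101613-104144504), had 217.3 and 482.5 CPM in endothelial and 0 and 1.444 in mural sums, from 1 mural UMI, for a ratio of 492 with a counting interval from 87.5 (edgeR adjusted p = 0.00648). Kdr, the main VEGF receptor of endothelium, had 397.6 and 731.9 against 3.387 and 1.444 (3 mural UMIs, ratio 260, interval 88.2 to 1270, edgeR adjusted p = 0.00215). Sox17, a SOX factor gene of arterial endothelium, had 64.72 and 134.3 against 0 and 0 and was at least 46.4-fold higher (edgeR adjusted p = 0.00814). Without either mural sum the calls of Cdh5 (0.0837 to 0.0946, edgeR adjusted) and Sox17 (0.0612 to 0.0685) were lost and that of Kdr was not. The level in embryo 5 was above that in embryo 4 for each of these 3 genes.

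The endothelial markers Emcn, Ecscr and Ets1 had no call between the groups, and their mural levels were far above those of the other barcodes. Emcn (endomucin) had 189.5 and 353.6 CPM in endothelial and 160.9 and 145.8 in mural sums (edgeR adjusted p = 0.191), Ecscr 138.7 and 334.4 against 110.1 and 79.42 (0.107), and Ets1, an ETS factor gene, 568.6 and 581.2 against 606.3 and 427.4 (0.824). In the other barcodes these genes had at most 0.7118, 0.6944 and 4.108 CPM. Esam, an endothelial adhesion molecule gene, was higher in endothelial sums (194.2 and 304.3 against 108.4 and 77.98, edgeR adjusted p = 0.0374), but its mural level was also above the other barcodes (log2 fold change 6.69 ± 0.379, edgeR adjusted p = 7.24e-05). The difference of Esam between the vascular groups lost its call with the embryo as a block (edgeR adjusted p = 0.0822) and without any sum other than the endothelial sum of embryo 4 (0.101 to 0.207). In all, 11 of the 24 endothelial markers were higher in mural sums than in the other barcodes.

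Of 20 endothelial transcription factor genes, 18 passed the filter, and 14 were higher in endothelial than in mural sums, 1 was lower and 17 were higher than in the other barcodes. Without the mural sum of embryo 4 and of embryo 5, 3 and 4 were called higher in endothelial than in mural sums. Mecom, a zinc finger factor gene on chromosome 3 (29951296-30509759), had 1147 and 1209 CPM against 1.694 and 2.888, a ratio of 507 (173 to 2460) on 3 mural UMIs (edgeR adjusted p = 0.00132). Fli1, an ETS factor gene, had 656.5 and 778.5 against 27.1 and 43.32 (log2 fold change -4.34 ± 0.371 in mural sums, edgeR adjusted p = 0.00192). Klf2, which blood flow induces, had 268.1 and 370.1 against 8.468 and 7.22 (-5.38 ± 0.504, edgeR adjusted p = 0.00234). Nr2f2, a factor gene of venous endothelium, went the other way, with 73.97 and 120.6 in endothelial and 335.3 and 264.3 in mural sums (log2 fold change 1.58 ± 0.355, edgeR adjusted p = 0.0352). That call was lost with the embryo as a block (edgeR adjusted p = 0.0695) and without any mural or other sum (0.102 to 0.183), and that of Klf2 without the mural sum of embryo 4 (0.0502). The endothelial genes of largest excess outside the lists were Adgrl4, an adhesion receptor gene (961.6 and 603.1 against 0 and 0, at least 315-fold, edgeR adjusted p = 0.0031), Zfp366, a zinc finger gene (254.3 and 353.6 against 0 and 0, at least 135-fold, edgeR adjusted p = 0.00241), and Cd93, a C-type lectin receptor gene (147.9 and 359.1 against 0 and 0, at least 120-fold, edgeR adjusted p = 0.0068). Of these, Cd93 lost its call without either mural sum (edgeR adjusted p of 0.0612 to 0.0686). Adgrl4, Zfp366 and Cd93 passed the filter through the endothelial sums where they are high. They were picked among genes with at least 50 CPM there, so that their side was in part fixed.

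Promoter sequence of the marker genes was read from RefSeq (GRCm38.p6, 250 bases before to 50 after each transcript start), which held 20 promoters of 13 of the 25 endothelial markers and 22 promoters of 16 of the 23 mural markers. The motif CAGGAAG, which holds the GGAA core of ETS factor sites, was found on either strand in 8 of the 20 endothelial promoters (40%), from 6 genes, in none of the 22 mural ones and in 13.3% of all 32851 promoters. The other ETS-type motifs searched, CCGGAAG and GGAAGTG, which overlap it in GGAAG, were found in 0 and 2 of the 20 endothelial and 1 and 2 of the 22 mural promoters, against 8.86% and 11% of all. The forkhead motif TGTTTAC was found in 0 of 20 and 2 of 22, against 3.65% of all. These motifs were chosen among several after looking at the promoters, and a match is a description, not a binding site. One window is shown for each of the 6 endothelial marker genes whose promoter held it, with the motif in capitals (CTTCCTG is CAGGAAG on the opposite strand), each 5' to 3' along the strand of the gene.
Cd34, chr1:194938668-194938696, plus strand: gtacacagtggCTTCCTGccacacttaaa
Egfl7, chr2:26580982-26581010, plus strand: tgggagacaaaCAGGAAGgccatctctct
Emcn, chr3:137340893-137340921, plus strand: aagaagggtctCTTCCTGttcaaatccca
Robo4, chr9:37401911-37401939, plus strand: tgagggccaggCAGGAAGcatccgtttcc
Ctla2a, chr13:60936604-60936632, minus strand: tagcagtgctcCAGGAAGgaaaaggcgga
Erg, chr16:95459371-95459399, minus strand: aatagaaacctCTTCCTGccattggctga
Of these genes, Erg, itself an ETS factor gene, had 143.3 and 274.1 CPM in endothelial and 1.694 and 1.444 in mural sums (2 mural UMIs, ratio 145, interval 39.2 to 1210, edgeR adjusted p = 0.0031). Egfl7, a secreted endothelial factor gene, had 397.6 and 647 against 30.49 and 23.1 (log2 fold change -4.32 ± 0.415, edgeR adjusted p = 0.00241), while Emcn, above, had no call between the groups. Cd34, a sialomucin gene, had 194.2 and 498.9 in endothelial and 3.387 and 1.444 in mural sums (edgeR adjusted p = 0.00365). Robo4, a guidance receptor gene of endothelium, had 46.23 and 46.6 against 5.081 and 0 (0.0164, edgeR adjusted), and Ctla2a, a protease inhibitor gene, 129.4 and 438.6 against 5.081 and 0 (0.00928). The calls of Erg (0.0541 to 0.0639, edgeR adjusted), Egfl7 (0.0504 to 0.0551), Cd34 (0.0657 to 0.0696) and Ctla2a (0.092 to 0.103) were lost without either mural sum, and that of Robo4 without any sum but the endothelial one of embryo 4 (0.0611 to 0.112).

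Most barrier transport genes were higher in endothelial than in mural cells. Of 21 transporter genes, 19 passed the filter, and 15 were lower and 2 higher in mural than in endothelial sums (median log2 fold change -3.14), and 16 were higher in endothelial sums than in the other barcodes. Without either mural sum, 8 of the lower calls and 1 higher call were made. Slc2a1, the glucose transporter GLUT1 (chr4:119108745-119137330), had 785.9 and 912.9 CPM in endothelial, 18.63 and 23.1 in mural and 12.63 and 10.89 in the other barcodes (log2 fold change -5.34 ± 0.377 in mural against endothelial sums, edgeR adjusted p = 0.00132). It was detected in 77.8% and 90.2% of endothelial barcodes, in 22% and 20.3% of mural barcodes and in 12.4% and 8.97% of the excitatory neuron barcodes. Mfsd2a, the lipid transporter that holds vesicular transport low, had 175.7 and 222 in endothelial and 1.694 and 2.888 in mural sums (3 mural UMIs, ratio 87.6, interval 29.3 to 431, edgeR adjusted p = 0.00132). Abcb1a, the efflux pump P-glycoprotein, had 166.4 and 254.9 against 0 and 1.444 (1 mural UMI, ratio 285, interval from 50.2, edgeR adjusted p = 0.0031). The call of Abcb1a was lost without the mural sum of embryo 4 (edgeR adjusted p = 0.0592).

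Amino acid transporters were among the genes higher in endothelial sums. Slc7a1, the cationic amino acid transporter, had 799.8 and 1072 CPM against 121.9 and 92.42 in mural sums (log2 fold change -3.14 ± 0.381, edgeR adjusted p = 0.00451). Slc7a5, the large neutral amino acid transporter, had 601 and 655.2 against 42.34 and 30.32 (-4.12 ± 0.327, edgeR adjusted p = 0.00147), and Slc38a5, a glutamine carrier, 189.5 and 227.5 against 0 and 1.444 (1 mural UMI, ratio 274, interval from 48.2, edgeR adjusted p = 0.00132). For each of these 3 genes both endothelial values were above both mural ones, which can arise by chance with 2 embryos. Tfrc, the transferrin receptor for iron uptake, had 258.9 and 296.1 against 42.34 and 43.32 (-2.70 ± 0.249, edgeR adjusted p = 0.00233). The drug efflux pump Abcg2 was expressed on both sides, with 217.3 and 367.3 in endothelial and 79.6 and 88.09 in mural sums, each above the 15.51 and 15.46 of the other barcodes (edgeR adjusted p = 0.000284 and 0.00225). Between the vascular groups Abcg2 was higher in endothelial sums (log2 fold change -1.84 ± 0.344, edgeR adjusted p = 0.0189), a call lost without any mural or other sum (0.0697 to 0.17), and Slc7a1 lost its call without either mural sum (0.0717 to 0.0773).

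Slc19a1, the reduced folate carrier, had 106.7 and 85.2 CPM in mural and 0 and 10.97 in endothelial sums (log2 fold change 3.78 ± 0.570, edgeR adjusted p = 0.00937). Slc6a20a, an imino acid transporter gene, had 18.63 and 18.77 against 0 and 0, and the difference did not pass the test (at least 3.62-fold, edgeR adjusted p = 0.211). Slc19a1 lost its call without either mural sum (0.0512 to 0.0765, edgeR adjusted).

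**Figure D2:**
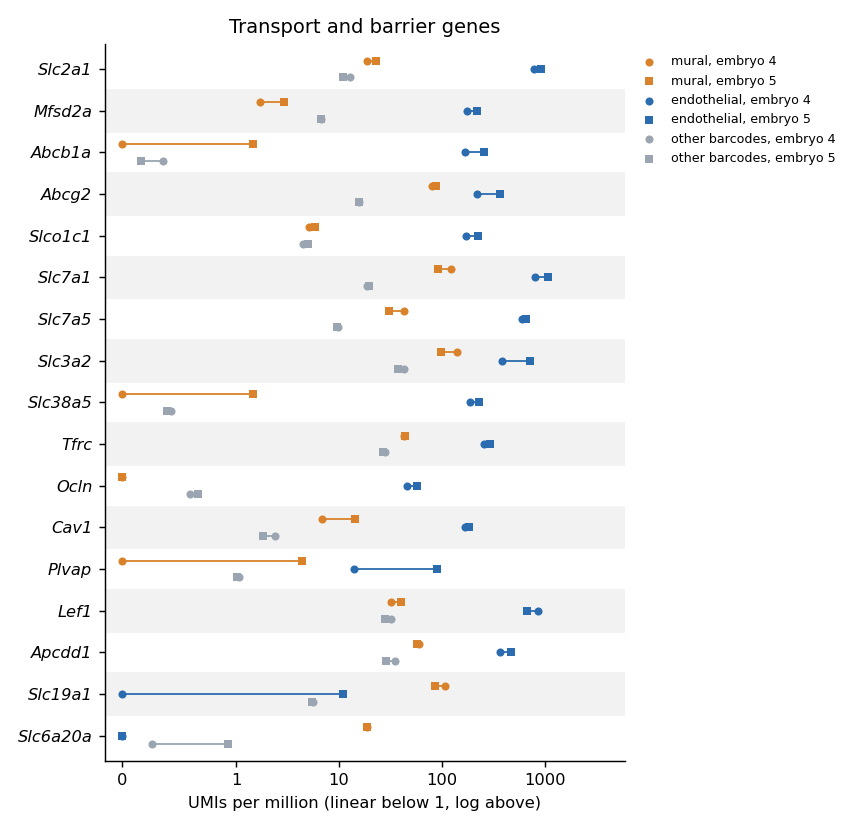
CPM (linear below 1, log above) of transport, junction, vesicle and Wnt target genes in mural, endothelial and other sums, circles for embryo 4 and squares for embryo 5. Slc2a1 lies at 785.9 and 912.9 in endothelial and near 20 in mural sums, and Slc19a1 shows the opposite order.

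Of 16 junction genes, 13 passed the filter, 7 were higher and none lower in endothelial than in mural sums, and the count was 0 and 1 without the mural sum of embryo 4 and of embryo 5 and 3 without the other barcodes of either. Of all genes tested, 6.98% were higher in endothelial than in mural sums. Ocln (occludin), a tight junction membrane protein gene, had 46.23 and 57.57 CPM against 0 and 0 (at least 22.8-fold, edgeR adjusted p = 0.00603), and Lsr, which encodes a protein of tricellular junctions, 83.22 and 128.8 against 3.387 and 8.664 (log2 fold change -4.17 ± 0.511, edgeR adjusted p = 0.0047). Without the mural sum of embryo 4 both calls were lost (Lsr, 0.0661, edgeR adjusted), and that of Ocln also without that of embryo 5 (0.0558 to 0.0662). Cgnl1 (paracingulin) had no call, with 134.1 and 183.7 in endothelial and 133.8 and 135.7 in mural sums (edgeR adjusted p = 0.743), and at most 1.554 in the other barcodes. Among vesicle genes, Cav1 (caveolin-1) had 166.4 and 183.7 against 6.775 and 14.44 (-4.03 ± 0.409, edgeR adjusted p = 0.0028). Plvap, the diaphragm protein gene of leaky vessels, had 13.87 and 90.46 CPM in endothelial sums and did not pass the filter on low counts. Its value was higher in embryo 5, with no test.

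Of 18 genes of the barrier-inducing Wnt pathway, 15 passed the filter, 4 were higher and none lower in endothelial than in mural sums (2 without either mural sum), and 11 were higher and 1 lower than in the other barcodes (6 and 1 without the other barcodes of either embryo). Of all genes tested, 6.98% were higher in endothelial than in mural sums and 15.6% higher in endothelial sums than in the other barcodes. Lef1, a transcription factor gene that is itself a Wnt target, had 855.3 and 674.4 CPM in endothelial and 32.18 and 40.43 in mural sums (log2 fold change -4.37 ± 0.321, edgeR adjusted p = 0.00132). Apcdd1, a feedback inhibitor gene, had 369.9 and 474.2 against 59.28 and 57.76 (-2.86 ± 0.308, edgeR adjusted p = 0.00325), and the receptor gene Fzd6 203.4 and 186.4 against 30.49 and 24.55 (-2.83 ± 0.273, edgeR adjusted p = 0.00241). Adgra2, which encodes the Wnt7 co-receptor GPR124, had 41.61 and 71.27 in endothelial and 28.79 and 51.99 in mural sums, which overlapped (edgeR adjusted p = 0.583). The ligand gene Wnt7b had 64.69 and 61.32 CPM in the other barcodes, 9.246 and 2.741 in endothelial and 20.32 and 21.66 in mural sums, and was lower in each vascular group than in the other barcodes (edgeR adjusted p = 0.00126 and 0.00172). The mural call of Wnt7b was lost without the other barcodes of either embryo (0.0619 to 0.0698, edgeR adjusted), and that of Apcdd1 without either mural sum (0.0612 to 0.0701).

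Ligand and receptor genes are given pathway by pathway. Pdgfb (chr15:79995865-80024614), the ligand of PDGFRB, had 152.6 and 167.2 CPM in endothelial and 5.081 and 2.888 in mural sums (log2 fold change -5.38 ± 0.369 in mural against endothelial sums, edgeR adjusted p = 0.00132). Its receptor gene Pdgfrb had 677.5 and 430.3 in mural and 0 and 2.741 in endothelial sums, a side that was fixed because it was one of the genes that chose the mural cells. Pdgfd, another ligand gene of that receptor, had 50.85 and 200.1 in endothelial and 0 and 2.888 in mural sums (2 mural UMIs, ratio 92.7, interval 24.9 to 778, edgeR adjusted p = 0.0162). The endothelial level of Pdgfb differed little between the embryos, whereas that of Pdgfd was higher in embryo 5, and the call of Pdgfd was lost without either mural sum (0.117 to 0.14, edgeR adjusted).

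The angiopoietin receptor gene Tek (TIE2) had 332.9 and 534.6 CPM in endothelial and 15.24 and 28.88 in mural sums (log2 fold change -4.31 ± 0.496, edgeR adjusted p = 0.00379). Angpt1, its activating ligand, had 69.44 and 115.5 in mural and 46.23 and 5.483 in endothelial sums (edgeR adjusted p = 0.0962). For the endothelins, the receptor gene Ednra (chr8:77663029-77724452) had 577.5 and 515.5 in mural and 0 and 8.224 in endothelial sums (3 endothelial UMIs, ratio 105, interval 35.9 to 512, edgeR adjusted p = 0.002). The ligand gene Edn1 had 9.246 and 19.19 in endothelial sums and 0 in mural sums and did not pass the filter. The sphingosine-1-phosphate receptor genes divided between the groups: S1pr1 had 50.85 and 87.72 in endothelial and 11.86 and 13 in mural sums (-2.57 ± 0.494, edgeR adjusted p = 0.0208). S1pr3 had 138.9 and 109.7 in mural and 0 and 2.741 in endothelial sums (1 endothelial UMI, ratio 71.6, interval from 12.7, edgeR adjusted p = 0.00254). Without either mural sum, the calls of Tek (0.0507 to 0.0761, edgeR adjusted) and S1pr1 (0.126 to 0.143) were lost and those of Ednra and S1pr3 were not.

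For Notch, the ligand gene Dll4 had 83.22 and 52.09 CPM in endothelial and 0 UMIs in mural sums (at least 27.2-fold, edgeR adjusted p = 0.00451), and Jag2 69.35 and 63.05 against 3.387 and 1.444 (3 mural UMIs, ratio 28.0, interval 8.87 to 142, edgeR adjusted p = 0.0031). Beside Notch3, the target gene Heyl was mural, with 230.3 and 122.7 against 0 and 0 (at least 33.4-fold, edgeR adjusted p = 0.0139). Jag1 had 52.5 and 80.87 in mural and 60.1 and 68.53 in endothelial sums, which overlapped (edgeR adjusted p = 0.955). In the VEGF family, Pgf, which encodes placental growth factor, had 57.58 and 43.32 in mural and 0 and 2.741 in endothelial sums (1 endothelial UMI, ratio 29.0, interval from 5.02, edgeR adjusted p = 0.0112), and Vegfc 55.48 and 175.4 in endothelial and 20.32 and 13 in mural sums (edgeR adjusted p = 0.0288). The apelin ligand and receptor were both endothelial: Apln had 46.23 and 35.64 against 1.694 and 0 (1 mural UMI, ratio 50.8, interval from 8.25, edgeR adjusted p = 0.0103), and Aplnr 124.8 and 205.6 against 1.694 and 1.444 (2 mural UMIs, ratio 113, interval 30.4 to 942, edgeR adjusted p = 0.00234). Without the mural sum of embryo 4 the calls of Dll4 (0.0565, edgeR adjusted) and Heyl (0.0731) were lost, and without either mural sum those of Pgf (0.0537 to 0.0822) and Apln (0.0859 to 0.104). Vegfc lost its call without any sum but the endothelial one of embryo 4 (0.0584 to 0.18).

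Of the TGF-beta and BMP genes, 15 of 17 passed the filter, and 7 were higher and none lower in endothelial than in mural sums, against 3 and 4 without the mural sum of embryo 4 and of embryo 5. Among all genes tested, the share higher in endothelial than in mural sums was 6.98%. The co-receptor gene Eng (endoglin) had 282 and 246.7 CPM in endothelial sums against 49.12 and 41.88 in mural sums (log2 fold change -2.53 ± 0.209, edgeR adjusted p = 0.00165). Acvrl1, which encodes the receptor ALK1, had 101.7 and 95.95 against 18.63 and 17.33 (-2.46 ± 0.280, edgeR adjusted p = 0.00375), and the inhibitor gene Smad7 124.8 and 164.5 against 15.24 and 8.664 (-3.68 ± 0.376, edgeR adjusted p = 0.00287). The ligand gene Tgfb1 had 46.23 and 79.5 in endothelial and 74.52 and 53.43 in mural sums and at most 1.519 in the other barcodes. It was higher in each vascular group than in the other barcodes (edgeR adjusted p = 0.000393 and 9.89e-05) and had no call between the vascular groups (0.915).

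**Figure D3:**
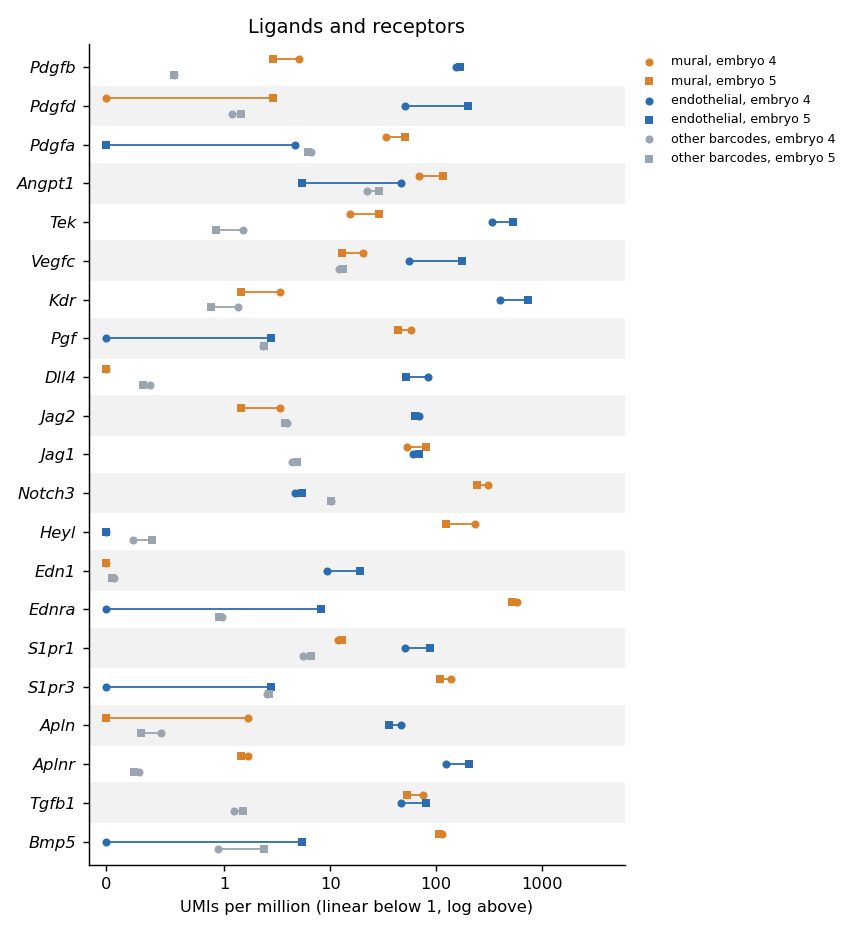
CPM (linear below 1, log above) of ligand and receptor genes in mural, endothelial and other sums, circles for embryo 4 and squares for embryo 5. Pdgfb lies at 152.6 and 167.2 in endothelial sums and under 6 in mural sums, and Ednra and S1pr3 show the opposite order.

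Some arterial and some venous genes were higher in endothelial sums than in the other barcodes. Of 7 arterial genes tested, 5 were higher in endothelial sums than in the other barcodes, and of 9 venous genes 5, against 15.6% of all genes tested. Gja4 rested on 4 of 36 (11.1%) and 13 of 41 (31.7%) endothelial barcodes, and Slc38a5, a venous as well as a transport gene, on 13 of 36 (36.1%) and 26 of 41 (63.4%). Thinned to 2000 UMIs per barcode, the shares were 10.3% and 25.6% for Gja4 and 20.7% and 41.0% for Slc38a5, and in excitatory neuron barcodes at full depth 0.285% and 0.348%, and 0.405% and 0.181%. Other members of the lists were not set apart in this way. Arterial Efnb2, thinned, was found in 20.7% and 15.4% of endothelial and 36.3% and 36.7% of excitatory neuron barcodes. Venous Nr2f2, thinned, was found in 3.45% and 10.3% against 9.37% and 7.87%. Arterial Gja5 was detected in 0 of 36 and 2 of 41 endothelial barcodes at full depth. Vwf, which encodes von Willebrand factor, had 64.72 and 95.95 CPM in endothelial and 1.694 and 0 in mural sums (1 mural UMI, ratio 108, interval from 18.5, edgeR adjusted p = 0.00406). That call was lost without either mural sum (0.0502 to 0.0508, edgeR adjusted). Of 14 tip cell genes, 10 passed the filter, and 7 were higher and 0 lower in endothelial sums than in the other barcodes (median log2 fold change 4.20), Dll4 and Apln among them. Dll4 stands in the arterial list as well. Between mural and endothelial sums 2 were higher and 4 lower in mural sums, against 0 and 0 without the mural sum of embryo 4 and 1 and 2 without that of embryo 5. Esm1, a member that did not pass the filter, had 0 UMIs in both vascular groups.

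Matrix genes were high in both vascular groups. Of 24 basement membrane and matrix genes, 23 passed the filter, 21 were higher in mural and 17 in endothelial sums than in the other barcodes and none was lower (medians 4.71 and 3.56). Between mural and endothelial sums 6 were higher in mural sums and 1 lower, against 0 and 0 without the mural sum of embryo 4 and 1 and 1 without that of embryo 5. The type IV collagen genes Col4a1 and Col4a2 had no call between the groups: Col4a1 had 2754 and 1941 CPM in mural and 1147 and 1121 in endothelial sums (edgeR adjusted p = 0.206), and Col4a2 1504 and 1155 against 813.7 and 997.8 (0.462). In the other barcodes they had at most 15.19 and 10.76. The laminin genes differed among themselves. Lamb1 had 516.6 and 414.4 in mural and 101.7 and 101.4 in endothelial sums (log2 fold change 2.20 ± 0.294, edgeR adjusted p = 0.00634), and Lamc3 166 and 157.4 against 0 and 0 (at least 31.3-fold, edgeR adjusted p = 0.0213). Lama4 had 555.5 and 440.4 against 527 and 608.6 (edgeR adjusted p = 0.79). Hspg2 (perlecan) was the 1 matrix gene higher in endothelial sums, with 152.6 and 197.4 against 45.73 and 41.88 (-2.04 ± 0.265, edgeR adjusted p = 0.00576). Without either mural sum the calls of Lamc3 (0.142 to 0.16, edgeR adjusted) and Hspg2 (0.0677 to 0.0686) were lost, and without that of embryo 4 that of Lamb1 (0.0573).

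Integrin genes for these ligands also divided. Itga1, a collagen receptor subunit, had 1213 and 973.3 CPM in mural and 323.6 and 263.2 in endothelial sums (log2 fold change 1.92 ± 0.336, edgeR adjusted p = 0.0152). Itga6, a laminin receptor subunit, had 50.81 and 49.1 against 147.9 and 131.6 (-1.47 ± 0.196, edgeR adjusted p = 0.00634). Itgb1, the common beta subunit, had 569.1 and 587.7 against 416.1 and 537.3, with no call (edgeR adjusted p = 0.66). The calls of Itga1 (0.0704 to 0.0993, edgeR adjusted) and Itga6 (0.0504 to 0.0677) were lost without any mural or other sum.

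Some mitosis genes were called higher in mural sums, in counts that moved with single sums. Of 16 mitosis genes, all tested, 13 were higher in mural sums than in the other barcodes (median log2 fold change 1.16), against 19.0% of all genes tested. Against endothelial sums 5 were higher in mural sums (median 1.58), against 4.48% of all genes tested. The first count was 7 and 2 without the mural sum of embryo 4 and of embryo 5 and 0 without the other barcodes of either embryo; with the embryo as a block it was 8. The second was 1 without either mural sum, 2 without the other barcodes of either embryo and 11 without the endothelial sum of embryo 5. Mki67, a marker of cycling cells, had 201.5 and 222.4 CPM in mural, 73.97 and 57.57 in endothelial and 66.35 and 79.49 in the other barcodes (log2 fold change 1.72 ± 0.260 against endothelial sums, edgeR adjusted p = 0.00942), a call lost without either mural sum (0.0632 to 0.0685). Cenpf, a kinetochore protein gene, had 240.5 and 290.3, 60.1 and 41.12, and 113 and 123.6 in the same groups, and was higher in mural than in endothelial sums (log2 fold change 2.44 ± 0.288, edgeR adjusted p = 0.00406). Of 15 S phase genes tested between mural and endothelial sums, 0 passed the test of edgeR, 4 had an unadjusted p under 0.05 and DESeq2 called 3, and 7 were higher in mural sums than in the other barcodes (3 with the embryo as a block, 0 without the mural sum of embryo 4 or the other barcodes of either embryo).

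By barcode, 18 of 50 (36.0%, exact 95% interval 22.9 to 50.8) and 29 of 64 (45.3%, 32.8 to 58.2) mural barcodes held 5 or more UMIs of the mitosis genes. Some of these in embryo 5 were weakly marked, such as 1 with 4 UMIs of the chosen genes and 129 mitosis UMIs. The part of weakly marked barcodes in the mural share was not tested. In endothelial barcodes the share was 16.7% (6.37 to 32.8) and 36.6% (22.1 to 53.1), and in the other barcodes 21.7% and 21.1%. Thinned to 2000 UMIs, which left out 7 and 2 endothelial and 0 and 6 mural barcodes, the shares were 20% and 27.6% in mural, 13.8% and 12.8% in endothelial and 12.1% and 13.4% in the other barcodes. The mural intervals at this depth, 10.0 to 33.7 and 16.7 to 40.9, overlapped those of endothelial barcodes, so that the order of shares was not resolved within an embryo.

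**Figure D4:**
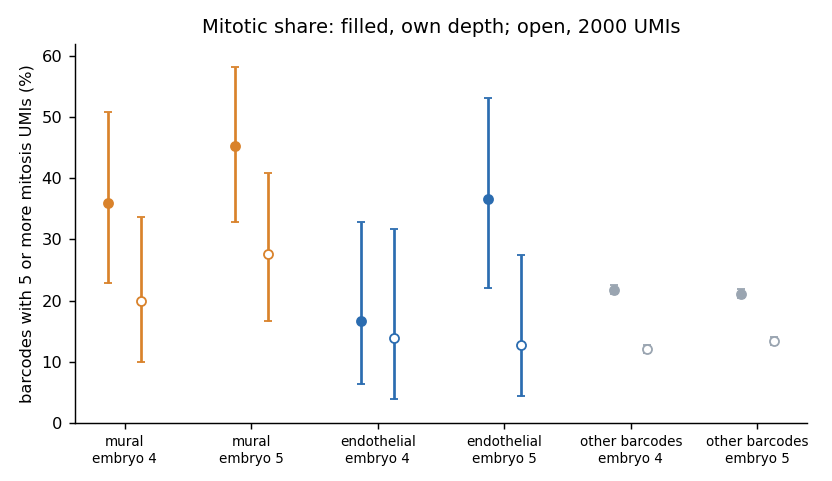
Percentage of barcodes with 5 or more mitosis UMIs by group and embryo, with exact 95% intervals. Filled points use each barcode's own depth and open points 2000 UMIs per barcode, where mural shares are 20% and 27.6% and the others lie between 12.1% and 13.8%.

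The endothelial barcodes of embryo 4 held a set without Cldn5. In embryo 4, 16 of 36 endothelial barcodes had no Cldn5 UMI, and in embryo 5, 4 of 41. The 16 barcodes had a median of 2972 UMIs and 1% mitochondrial UMIs, against 5368.5 UMIs and 4.74% in the 20 with Cldn5, and 8 of the 16 were under 1%. Flt1, in the rule, had 2832 CPM in the 16 and 1461 in the 20. A barcode without Cldn5 could meet the rule only through Flt1 and Pecam1, so that its Flt1 level was in part fixed by the split. Among genes the rule did not use, Mecom had 1690 and 909.5, and Lef1 1279 and 670.5. In embryo 5 the 4 barcodes without Cldn5 had the lower levels, with 649.8 CPM of Flt1 against 1714 in the 37 with Cldn5, 99.97 of Mecom against 1273 and 199.9 of Lef1 against 701.9. The order of these 3 genes thus differed between the embryos. In embryo 4, Ramp2, the adrenomedullin receptor partner of endothelium, had 30.46 in the 16 and 790 in the 20, and Slc2a1 258.9 and 1016. The order was the same in embryo 5, where Ramp2 had 0 in the 4 and 1062 in the 37, and Slc2a1 49.98 and 962.9. Unc5d, a gene of excitatory neurons, had 1020 in the 16 and 278.8 in the 20 of embryo 4. In embryo 5 it had 149.9 in the 4 without Cldn5 and 14.5 in the 37 with Cldn5. The part of low mitochondrial share, depth and neuronal transcripts in these levels was not tested, and these subsets were formed after the values were seen.

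**Figure D5:**
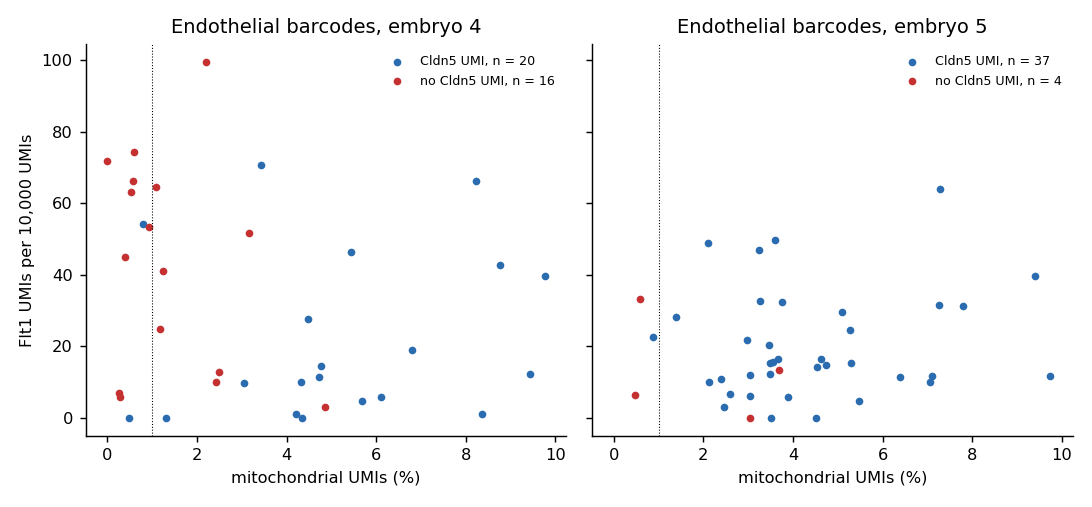
Flt1 UMIs per 10000 UMIs against the mitochondrial percentage of UMIs for each endothelial barcode, by embryo, with barcodes without Cldn5 in red and a dotted line at 1%. In embryo 4, 8 of the 16 barcodes without Cldn5 lie under 1%.

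Flt1 was also found in mural cells with few UMIs of Cldn5. Among mural barcodes, 14 of 50 (28.0%) and 19 of 64 (29.7%) held a Flt1 UMI, against 1.86% and 1.02% of the excitatory neuron barcodes, and 1 and 4 held a Cldn5 UMI. Thinned to 2000 UMIs, the mural shares were 12% and 10.3% and those of the excitatory neuron barcodes 0.346% and 0.251%. The 16 barcodes left out for meeting both rules had 48 to 159 UMIs of the mural genes and 4 to 10 of the endothelial genes. These 16 held 78 Flt1 UMIs but 1 of Cldn5, 2 of Pecam1 and 0 of Cdh5, and Flt1 alone met the endothelial rule in 15 of them. Their Rgs5 level was 4863 and 2869 CPM and their Vtn level 1283 and 815.4, above the mural sums in each embryo. Abcc9 (1646 and 724.8), Kcnj8 (983.3 and 377.5) and Pdgfrb (769.5 and 392.6) were above the mural sums in embryo 4 only. In embryo 5 the mural sum had 878, 413 and 430.3 CPM of these genes. The levels of the mural and endothelial genes of the rules in these barcodes were set by the rules that picked them. The share with a Flt1 UMI among all barcodes of the mural rule was 36.8% and 38.4%. Of these 16 barcodes, 2 were among those most like simulated doublets. Among the members, 4 of 50 and 12 of 64 mural and 8 of 36 and 9 of 41 endothelial barcodes were so marked. Of all barcodes that passed the limits on genes and mitochondrial share, 1029 of 11344 and 1093 of 11686 were.

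Markers of other cell types were present in both groups, in part through single barcodes. The 12 fibroblast markers summed to 464.1 and 834.6 CPM in mural, 23.11 and 109.7 in endothelial and 13.41 and 59.21 in the other barcodes, and 2 and 5 mural barcodes held 20 or more such UMIs. Col1a1, Col1a2 and Col3a1 are also expressed by mural cells and stand in this list. In embryo 5, 1 endothelial barcode held 155 of the 162 UMIs of microglia and macrophage markers in its group. In each embryo 1 mural barcode held 492 of 834 and 416 of 1013 UMIs of the radial glia markers, which summed to 1412 and 1463 CPM in mural, 1105 and 391.9 in endothelial and 1784 and 1834 in the other barcodes. The erythroid markers summed to 167.7 and 376.9 CPM in mural, 425.3 and 737.4 in endothelial and 1808 and 2103 in the other barcodes. The excitatory neuron markers summed to 108.4 and 153.1 CPM in mural sums and 2757 and 2829 in the other barcodes. The limit on Neurod2 and Neurod6 UMIs kept excitatory neurons out of the vascular groups and left them among the other barcodes. That order was therefore in part fixed by the rule, as were lower calls of genes of these neurons in vascular sums. The 12 early response genes, which tissue dissociation can induce, summed to 443.7 and 625.3 CPM in mural, 536.3 and 984 in endothelial and 206.9 and 197.3 in the other barcodes. Of 11 that passed the filter, 6 were higher and 1 lower in mural and 7 higher and 0 lower in endothelial sums than in the other barcodes. Of all genes tested, 19.0% were higher and 16.1% lower in mural and 15.6% higher and 8.73% lower in endothelial sums. The 6 was 3 without a mural sum or the other barcodes of either embryo, and the 7 was 4 without the other barcodes of embryo 4 and 2 without the endothelial sum of embryo 5. The part of such genes and barcodes in the values above was not tested one by one, and counts without those most like simulated doublets stand in the closing section.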

How the data were processed

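Papain-dissociated cells of 2 embryos were captured with 10x Genomics 3' v3.1 chemistry, 1 library each. The deposited values are raw counts of UMIs per gene and barcode, which the authors made with Cell Ranger (7.0.0 per the labels, 7.1.0 per the file headers) on mm10 (GRCm38), over 32285 genes. Whether intronic reads were counted is not given in the sources used here, nor is the removal of doublets or of free RNA. The whole count of the libraries was 124318613 and 117679925 UMIs in 12825 and 12289 barcodes, of which 1481 and 603 failed the limits on genes and mitochondrial share.

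UMIs were summed per embryo for mural, endothelial and other barcodes (6 sums, 3 residual degrees of freedom). Genes were filtered with filterByExpr, scaled by TMM and tested with edgeR 4.0.16 (R 4.3.3) in 1 fit over the 3 groups, with Benjamini-Hochberg adjustment and a threshold of 0.05. The genes that chose the cells and mitochondrial genes were not tested. Fold changes are log2 with standard errors. Genes at 0 in a group are given as a bound against 3 UMIs over both embryos, and genes with 1 to 3 UMIs there as a ratio with an exact 95% counting interval. P-values rest on a spread between embryos estimated over all 6 sums, the other barcodes included. Those between mural and endothelial sums therefore do not measure the spread of these 2 groups alone. Sums of 1 embryo come from 1 library, so the embryo number pairs them by design, and the correlation of their deviations from the group means was -0.115 to 0.122 over 10009 genes. In data simulated for the mural and endothelial comparison over 8960 genes, 51 of 100 genes changed 4-fold and 2 of 100 changed 2-fold were recovered. All 6 simulated sums had the mural profile, the same fixed spread and no embryo effect. Recovery in the real sums may therefore differ.

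Named genes are those that chose the cells, genes of fixed lists, and the 12 of largest change per direction and comparison with at least 50 CPM in both embryos of the higher group. The members and lists were chosen with earlier results of these data known. Doublet-like barcodes were found with Scrublet in scanpy 1.11.5 and kept, and removed as an alternative. Alternatives varied the scaling, test, filter, block, sums, thresholds and depth.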

Additional observations from a re-analysis of the deposited data

Results flagged for a closer look

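Some barcodes reached a UMI threshold of the rules without entering a vascular group. There were 16 barcodes that met both the mural and the endothelial rule. The mural rule was also met by 18 barcodes with more than 3 Neurod2 and Neurod6 UMIs (10 in embryo 4 and 8 in embryo 5) and by 7 that failed the limits on genes or mitochondrial share (4 and 3). The endothelial rule was met by 25 barcodes above the Neurod limit (20 and 5) and by 12 that failed the other limits (8 and 4). The barcodes above the Neurod limit were counted among the other barcodes in the comparisons. The 16 barcodes and those that failed the other limits entered no sum.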

How the results depend on the processing

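With 2 embryos, counts of genes were the results that moved most. Leaving out 1 sum gave 82 to 1151 genes higher and 118 to 1126 lower in mural than in endothelial sums, 733 to 2687 and 315 to 2672 in mural against other barcodes, and 696 to 2114 and 120 to 1804 in endothelial against other barcodes. DESeq2 called 1051 higher and 1338 lower between mural and endothelial sums and 1461 lower in endothelial than in other barcodes. A fit over the compared groups only gave 265 and 411 between vascular groups and 3306 lower in mural than in other barcodes. With the embryo as a block (replicate pairing), 969 genes were lower in mural and 441 in endothelial than in other barcodes; between the vascular groups the counts were 332 and 516. Without doublet-like barcodes 779 genes were higher in mural than in endothelial sums and 1891 lower in endothelial than in other barcodes. The causes were not tested.

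Of 215 calls of named genes, 50 were lost without the mural sum of embryo 4 and 44 without that of embryo 5, 27 and 26 without the other barcodes of embryos 4 and 5, 4 and 9 without the endothelial sums and 6 with the block, and 2 values reversed. The log2 fold change of Cenpf, endothelial against other barcodes, was 0.67 with at least 2 UMIs for the rules. That of Robo4, mural against other barcodes, was -4.9034 without the mural sum of embryo 4 and 5.9501 without that of embryo 5. The mural share was 0.767% with at least 2 UMIs and 0.573% with no Neurod limit. The endothelial share was 0.547% and 0.444% in the same settings, 0.308% with at least 6 UMIs, 0.267% with mitochondrial shares up to 5%, 0.287% without doublet-like barcodes, 0.247% when barcodes were thinned to 2000 UMIs and 0.277% without barcodes under 1% mitochondrial UMIs, the last chosen after seeing the data. Averaged over embryos, the cycling share of mural barcodes was 71.4% at 2 and 31.2% at 10 mitosis UMIs and 23.8% thinned, and that of endothelial barcodes 58.1% at 2. Thinned, Acta2 was found in 9.05% and Flt1 in 11.2% of mural and Slc2a1 in 69.1% of endothelial barcodes.

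Small groups, a depth of 4347 UMIs per endothelial barcode in embryo 4 and 3 residual degrees of freedom limit these values, and a gene without a call is not shown to be equal.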
